A study of Mus musculus with 4 samples.

Results

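MHC class II genes were followed as a group of 8 genes in RNA-seq of TCRβ+CD8αα+ intraepithelial lymphocytes (IELs) of the mouse small intestine. They were chosen by name as the chains and helpers of the class II pathway: H2-Aa, H2-Ab1, H2-Eb1, Cd74, H2-DMa, H2-DMb1, H2-DMb2 and Ciita. All 8 were found among the 19339 genes listed in each library, and all 8 passed the filter of at least 1 FPKM in at least 2 libraries. FPKM, in which RNA-seq fragments are divided by transcript length and by the mapped fragments of the library, is a level corrected for length and depth. The keratin gene Krt8 and the lysozyme gene Lyz2, which mark epithelium and myeloid cells, were read beside them in every library.

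The cells came from C57BL/6 mice of 2 genotypes. Control mice were Kdm6bfl/fl, with both alleles of the histone H3K27 demethylase gene Kdm6b flanked by loxP sites and intact. Kdm6b-deficient mice were Kdm6bfl/fl-CD4Cre, in which the same floxed alleles meet a Cre recombinase driven by the CD4 promoter and thus directed at the T cell lineage. The sort gate took CD45+ CD4- TCRβ+ CD8α+ CD8β- cells, and each library held the RNA of 3 mice of the same genotype. Libraries labelled replicate 1 and replicate 3 were used for each genotype, 4 in all, and the age of the mice was not given in the labels.

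The deleted gene was checked first. Kdm6b had 16.5 and 16.0 FPKM in control replicates 1 and 3, and 18.2 and 11.1 FPKM in replicates 1 and 3 labelled Kdm6b-deficient. Only deficient replicate 3 was thus below the controls, and FPKM of the whole gene does not show whether the floxed part was lost. "Deficient" therefore names a library by its label throughout, and every direction given refers to these labels.

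MHC class II molecules present peptides from endosomes to CD4+ T cells. An α chain and a β chain pair in the endoplasmic reticulum around the invariant chain, reach an endosomal compartment where proteases trim that chain to a short placeholder peptide, and exchange this peptide for others with the help of the DM heterodimer. In the mouse the pathway is a hallmark of dendritic cells, macrophages and B cells, and the epithelium of the small intestine can express it under interferon-γ. Resting mouse T cells are known for lacking it. Transcription depends on the coactivator CIITA, which acts through factors bound to conserved promoter boxes named X and Y, the Y box being a site of the trimeric factor NF-Y.

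The promoter boxes could be read for several of these genes, and 4 promoters are shown because they hold a motif shared among class II genes. The RefSeq tables of GRCm38.p6 held a window of 250 bases before the start site for 5 of the 8 genes. H2-Ab1, Cd74 and Ciita were not among them. The last 140 bases before the start are printed 5′ to 3′ on the strand of the gene, with TGATTGG (the core of a Y box) and, where it lies 20 to 30 bases before it, GCAAC (a core within the X box region) in capitals. The start is that of a transcript in the RefSeq tables, which for H2-DMb2 and for both windows of H2-DMa lies inside the extent of the gene given further on. The windows are chr17:34287824-34287963 on the minus strand for H2-Aa and, on the plus strand, chr17:34305727-34305866 for H2-Eb1, chr17:34153051-34153190 for H2-DMb1 and chr17:34145109-34145248 for H2-DMb2.
H2-Aa: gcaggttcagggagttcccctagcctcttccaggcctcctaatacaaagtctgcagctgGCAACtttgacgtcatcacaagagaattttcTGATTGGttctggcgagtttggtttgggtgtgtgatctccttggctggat
H2-Eb1: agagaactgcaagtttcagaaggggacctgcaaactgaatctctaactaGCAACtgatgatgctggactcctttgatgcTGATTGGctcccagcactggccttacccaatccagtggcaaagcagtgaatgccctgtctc
H2-DMb1: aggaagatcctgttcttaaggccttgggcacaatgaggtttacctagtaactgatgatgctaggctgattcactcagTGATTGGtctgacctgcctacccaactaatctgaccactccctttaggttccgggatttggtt
H2-DMb2: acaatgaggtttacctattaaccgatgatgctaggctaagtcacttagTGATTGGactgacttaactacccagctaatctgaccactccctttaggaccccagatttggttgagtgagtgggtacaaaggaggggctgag

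TGATTGG stood in all 4 of these windows, starting 50 bases before the start site in H2-Aa, 61 in H2-Eb1, 63 in H2-DMb1 and 92 in H2-DMb2. It was found on either strand in 7.23% of 32851 windows of the same length over the genome. GCAAC alone was common, in 29.9% of windows. The pair at this spacing was found in 29 windows (0.0883%), belonging to 26 of 27025 genes. Those genes included H2-Aa, with 26 bases between the motifs, and H2-Eb1, with 25 bases between them, and also the class II genes H2-Eb2, H2-Oa and H2-Ob. The windows of H2-DMb1 and H2-DMb2 held TGATTGG without GCAAC. Neither of the 2 windows of H2-DMa, nor those of Krt8 and Lyz2, held TGATTGG. The motifs and their spacing were chosen after the sequences were seen, and a match of letters is a description, not a measured binding site.

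The classical chains were abundant for a sort of T cells, and every one of them was higher in both Kdm6b-deficient libraries than in both controls. Of these genes the H2-A β chain gene H2-Ab1 (chromosome 17, 34263227 to 34269418, GRCm38) had the highest level, at 698 and 495 FPKM in control replicates 1 and 3 and 1229 and 741 FPKM in Kdm6b-deficient replicates 1 and 3. Deficient replicate 1 was far above the other 3 libraries, and deficient replicate 3 was only slightly above control replicate 1. The difference of the group means of log2(FPKM + 1) was 0.70 (SE 0.33, 95% confidence interval −0.13 to 1.52), with a Benjamini-Hochberg adjusted p of 0.755 in limma. It was 0.33 without deficient replicate 1, 0.45 without control replicate 3 and 1.06 without deficient replicate 3.

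H2-Eb1 (chromosome 17, 34305867 to 34316674), the β chain gene of H2-E, was at 181 and 153 FPKM in the controls and 265 and 218 FPKM in the deficient libraries. The groups did not overlap, and within each group the libraries lay closer together than for H2-Ab1. Its log2 difference was 0.53 (SE 0.20, 95% confidence interval 0.03 to 1.02), with an adjusted p of 0.755 in limma. The α chain gene H2-Ea, which carries an inactivating deletion in C57BL/6 mice, was not analysed here.

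H2-Aa (chromosome 17, 34282744 to 34287823), the α chain gene that pairs with H2-Ab1, was at 24.9 and 32.6 FPKM in the controls and 68.7 and 36.2 FPKM in the deficient libraries. Deficient replicate 3 exceeded control replicate 3 by a small margin, and the difference of 0.79 (SE 0.34, 95% confidence interval −0.07 to 1.64, adjusted p = 0.755 in limma) was 0.33 without deficient replicate 1 and 1.24 without deficient replicate 3. Although the 2 chains form a single heterodimer, the FPKM of H2-Ab1 was 28, 15.2, 17.9 and 20.5 times that of H2-Aa in control replicates 1 and 3 and deficient replicates 1 and 3. The ratio of H2-Eb1 to H2-Ab1 varied less, at 0.26, 0.309, 0.216 and 0.295 in the same order. The cause of the low level of H2-Aa was not tested.

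Cd74, the invariant chain gene on chromosome 18, had the highest level of all 8 genes. It was at 1308 and 939 FPKM in the controls and at 2183 and 1637 FPKM in the deficient libraries. Both deficient libraries were above both controls, with a log2 difference of 0.77 (SE 0.30, 95% confidence interval 0.03 to 1.51) and an adjusted p of 0.755 in limma. The ratio of Cd74 to H2-Ab1 was 1.88 and 1.9 in the controls and 1.78 and 2.21 in the deficient libraries, a range of 1.24-fold, so these transcripts kept nearly the same proportion while both levels differed. Together they made up 85.5% to 88.7% of the FPKM summed over the 8 genes. The level of Cd74 exceeded that of the T cell receptor component gene Cd3e by 2.59 and 2.67 times in the controls and by 6.12 and 5.39 times in the deficient libraries.

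**Figure D1:**
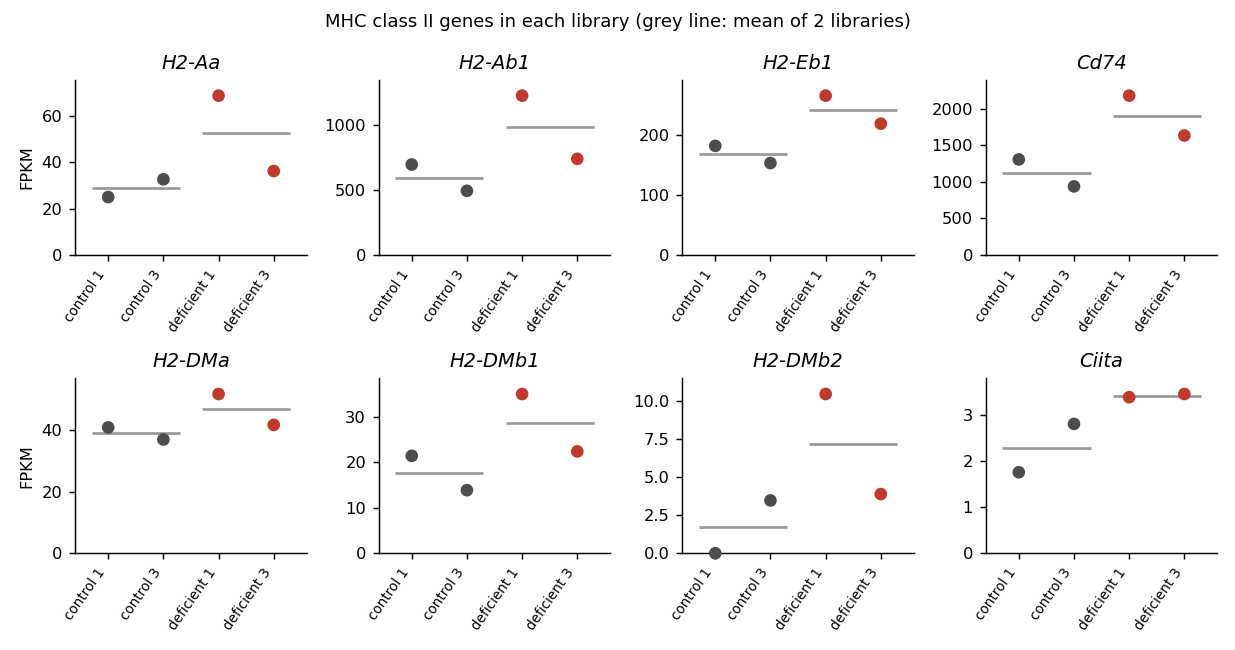
FPKM (linear axes from 0) of the 8 class II genes in the 4 libraries, controls in grey and Kdm6b-deficient in red, with a grey line at the mean of each group (n = 2). Both red points lie above both grey points in every panel, and deficient replicate 1 is the highest library for all genes except Ciita, where deficient replicate 3 (3.46 FPKM) is level with it (3.39 FPKM).

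The genes of the DM heterodimer, which catalyses peptide exchange, were expressed at lower levels, at most 51.8 FPKM. H2-DMa (chromosome 17, 34119693 to 34139101) had the smallest difference of the group, with 40.9 and 37.0 FPKM in the controls against 51.8 and 41.8 FPKM in the deficient libraries. The gap between deficient replicate 3 and control replicate 1 was under 1 FPKM, and the log2 difference was 0.25 (SE 0.20, 95% confidence interval −0.24 to 0.75, adjusted p = 0.781 in limma). Without deficient replicate 1 it was 0.10, and without deficient replicate 3 it was 0.40. H2-DMb1 (chromosome 17, 34153191 to 34160229) was at 21.4 and 13.8 FPKM in the controls and 35.0 and 22.4 FPKM in the deficient libraries. Here too deficient replicate 3 was close to control replicate 1, and the log2 difference was 0.67 (SE 0.32, 95% confidence interval −0.14 to 1.48, adjusted p = 0.755 in limma). It was 0.36 without deficient replicate 1 and 0.37 without control replicate 3.

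H2-DMb2 (chromosome 17, 34143229 to 34151553), a second gene for the DM β chain next to H2-DMb1, was listed at 0 in control replicate 1. It was at 3.48 FPKM in control replicate 3 and at 10.5 and 3.90 FPKM in deficient replicates 1 and 3. It was the only class II gene past the fold threshold, a log2 difference above 1, at 1.83 (SE 0.81, 95% confidence interval −0.19 to 3.84, adjusted p = 0.755 in limma). This value turned on the library listed at 0: without control replicate 1 it was 0.74, and with pseudocounts of 0.1 and 0.01 in place of 1 it was 3.44 and 5.10. Without deficient replicate 1 it was 1.21, and without control replicate 3 it was 2.91.

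Reads of the 2 DM β chain genes are not cleanly separable. Their reference transcripts, 1404 and 1424 bases long, were identical at 94.2% of 1246 aligned bases, and 369 of the 1375 windows of 50 bases in the H2-DMb2 transcript (26.8%) occur unchanged in H2-DMb1. The split between them, with H2-DMb2 at 0%, 20.1%, 23.1% and 14.8% of their sum in control replicates 1 and 3 and deficient replicates 1 and 3, is thus uncertain. Their sum was 21.4 and 17.3 FPKM in the controls and 45.5 and 26.3 FPKM in the deficient libraries. The groups stayed apart for the sum, with a log2 difference of 0.81 (SE 0.31) that was under the fold threshold. Set against H2-DMa, the summed β chains were at 0.522 and 0.468 in the controls and 0.878 and 0.629 in the deficient libraries.

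Ciita (chromosome 16, 10480014 to 10531064), the coactivator on which class II transcription depends, was the lowest of the 8 genes in 3 of the 4 libraries. It was at 1.76 and 2.81 FPKM in the controls and 3.39 and 3.46 FPKM in the deficient libraries. The deficient libraries were alike and stood above both controls, while the controls differed from each other by more than control replicate 3 differed from either deficient library. The log2 difference was 0.45 (SE 0.33, 95% confidence interval −0.38 to 1.27), with an adjusted p of 0.775 in limma. It was 0.22 without control replicate 1 and 0.68 without control replicate 3. A pseudocount of 1 shrinks differences at levels this low, and with a pseudocount of 0.01 the value was 0.62.

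Read as a group, the class II genes were higher in the deficient libraries without any of them passing the test on genotype alone. Both deficient libraries were above both controls for 8 of 8 genes, while this held for 18.4% of the 12009 genes tested, and below both for none of the 8, against 18.6% of all genes. All 8 log2 differences were positive, against 50.1% of all genes. Deficient replicate 1 taken alone was above both controls for all 8 (32.5% of all genes), as was deficient replicate 3 (39.2% of all genes). The median log2 difference was 0.68 over the 8 genes and 0.00 over all genes tested. A single class II gene, H2-DMb2, was past the fold threshold, above 1, against 6.20% of all genes, or 6.64% in either direction. None was below −1, against 0.441% of all genes. With genotype alone in the model, no class II gene reached an adjusted p of 0.05 in limma, nor did any of the 12009 genes (0%). Fits with a further term are given further on. Without adjustment, H2-Eb1 and Cd74 had a limma p under the threshold, against 5.35% of all genes in either direction and 3.80% that were also higher. The 8 genes share a pathway, a coactivator and, for 6 of them, a stretch of chromosome 17, so they are not independent observations. They were also chosen with earlier results of these data known, so the shares of all genes are given for scale and not as a test.

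**Figure D2:**
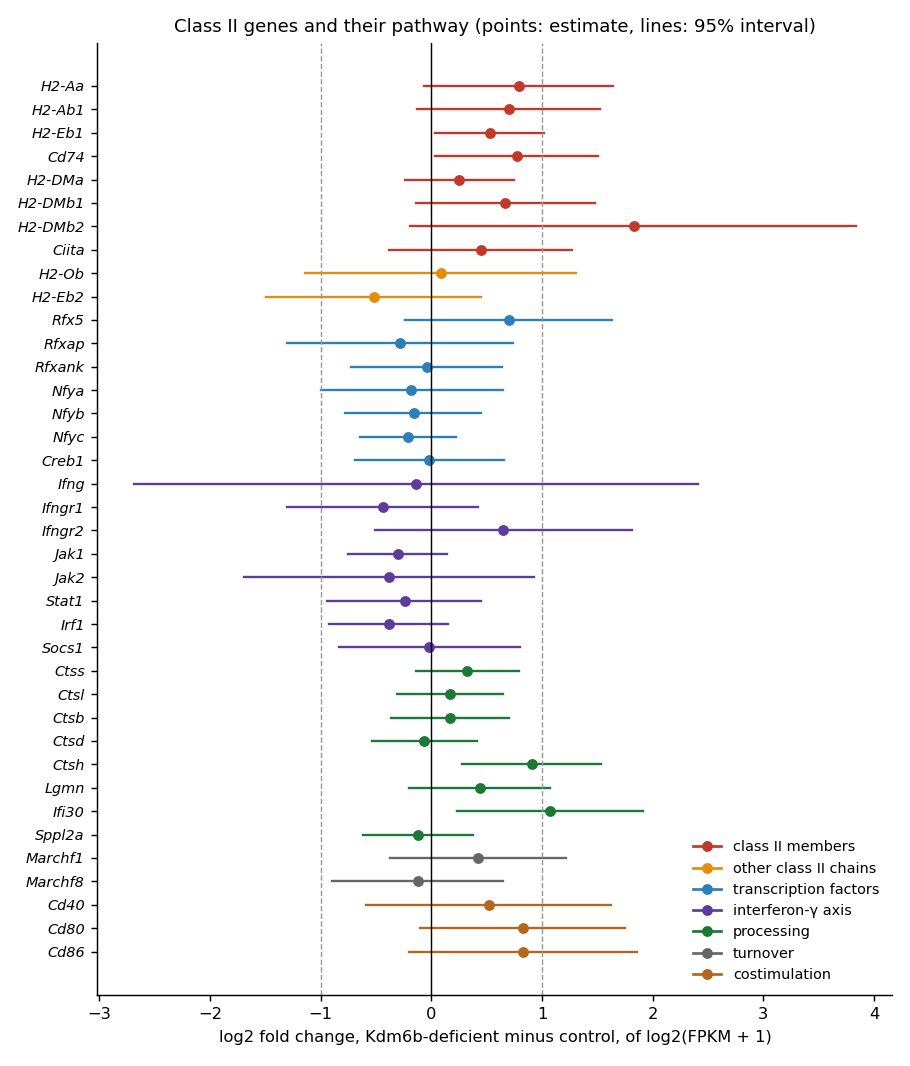
Difference of log2(FPKM + 1) between Kdm6b-deficient and control libraries (x axis) with its 95% confidence interval for the 8 class II genes and the other pathway genes tested, coloured by role, with dashed lines at the fold threshold of −1 and 1. All 8 class II points lie right of 0, from 0.25 for H2-DMa to 1.83 for H2-DMb2, while the interferon-γ genes have a median of −0.27.

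Summed over the 8 genes, the class II level was 2277 and 1676 FPKM in control replicates 1 and 3 and 3847 and 2704 FPKM in deficient replicates 1 and 3. Deficient replicate 1 was 1.69 times control replicate 1, deficient replicate 3 was 1.61 times control replicate 3, and the highest library was 2.29 times the lowest. On the log2 scale the means were 10.93 ± 0.31 in controls and 11.66 ± 0.36 in deficient libraries (SD, n = 2), and the difference of 0.72 gave p = 0.333 in a two-sided exact permutation test. With 2 libraries against 2, this is the smallest p that the design allows. The difference was 0.47 without deficient replicate 1. In bulk RNA, more class II-expressing cells in the sort and more class II RNA per cell cannot be told apart.

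The other genes of the pathway did not all follow the class II genes. For the counts over each list, 18.4% of all genes were higher and 18.6% lower in both deficient libraries. Past the fold threshold in either direction were 6.64% of all genes. Of the 7 genes for factors that bind class II promoters beside CIITA, 1 was higher and 1 lower in both deficient libraries, 5 overlapped and none was past the fold threshold, with a median log2 difference of −0.16. The higher one was Rfx5, the DNA-binding subunit of the X box factor RFX, at 2.98 and 1.45 FPKM in controls and 4.61 and 3.57 FPKM in deficient libraries (log2 difference 0.70, adjusted p above 0.05). The lower one was Nfyc, an NF-Y subunit, at −0.21. Of the 8 genes from interferon-γ to its signalling factors, the route by which Ciita is induced outside professional antigen presenting cells, none was higher in both deficient libraries, 2 were lower in both, and the median was −0.27. Those 2 were the kinase gene Jak1, at 135 and 125 FPKM in controls against 114 and 96.7, and the transcription factor gene Irf1, at 150 and 129 against 123 and 91.8. Ifng itself, the gene of the cytokine, was at 23.3 and 13.5 FPKM in controls and at 51.2 and 4.53 FPKM in deficient libraries. The deficient libraries held both its highest and its lowest value, so the groups overlapped.

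Genes for breakdown of antigen and invariant chain were higher in both deficient libraries in 4 of 8 cases (18.4% of all genes) and lower in both in none (18.6% of all genes, median log2 difference 0.25). Ifi30, the lysosomal thiol reductase that opens disulfide bonds of antigens, was the only one past the fold threshold, against 6.20% of all genes above 1. Ifi30 was at 12.8 and 25.1 FPKM in controls and 38.5 and 39.1 FPKM in deficient libraries (log2 difference 1.07, unadjusted p = 0.0209, adjusted p = 0.755 in limma). The deficient libraries were alike, and the controls differed by nearly as much as the groups did. The cathepsin genes Ctsh, Ctss, the main protease of the invariant chain in dendritic and B cells, and Ctsl were the other 3, with log2 differences of 0.91, 0.32 and 0.17.

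The genes of the DM inhibitor DO were low, at most 2.83 FPKM. H2-Oa was listed at 2.08 FPKM in deficient replicate 1 and at 0 in the other 3 libraries, and H2-Ob was at 2.39 and 0.95 FPKM in the controls and 2.83 and 0.95 FPKM in the deficient libraries. H2-Eb2, a further β chain gene, was lower in both deficient libraries, at 2.15 and 2.34 FPKM in controls against 1.95 and 0.73 FPKM, opposite to its neighbour H2-Eb1. The ubiquitin ligase gene Marchf1, whose product removes class II molecules from the surface, was at 1.23 and 1.1 FPKM in controls and 2.07 and 1.74 FPKM in deficient libraries, while Marchf8 overlapped. Of the costimulatory ligands of antigen presenting cells, Cd86 was at 9.53 and 5.63 FPKM in controls and 19.2 and 9.92 FPKM in deficient libraries, and Cd80 was at 3.13 and 1.52 against 5.27 and 4.21. Both had groups that did not overlap and a log2 difference of 0.83, and Cd40 overlapped at 0.52. H2-Oa did not pass the filter and was not tested, and none of the others had an adjusted p under 0.05 in limma.

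The markers of the sorted cells and of the cells left out by the gate were read in the same libraries. The T cell genes that define the sort were strong throughout, with Cd3e at 505 and 352 FPKM in controls and 357 and 304 FPKM in deficient libraries, Ptprc at 268 to 410 FPKM and Cd8a at 280 to 463 FPKM. Of 10 T cell and IEL markers, 6 were lower in both deficient libraries (18.6% of all genes), and their summed level was 10149 to 13210 FPKM in controls and 7188 to 9733 FPKM in deficient libraries. Cd8b1, excluded by the gate, was at most 1.64 FPKM. Cd4, also excluded, was at 30.6 and 10.1 FPKM in controls and 30.5 and 3.17 FPKM in deficient libraries.

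B cell genes other than Cd79b were low. Cd79a was at 1.75 to 3.53 FPKM, Ms4a1 at 0.07 to 0.83 FPKM and Pax5 at 0 to 0.10 FPKM, and only 3 of 12 B cell markers passed the filter. The sum over the list was 35 to 44.2 FPKM in controls and 37.3 to 44.3 FPKM in deficient libraries, most of it Cd79b at 28.4 to 33.5 FPKM. All 3 markers tested overlapped between the groups. Of the 9 below the filter, 4 (Ebf1, Fcer2a, Cr2 and Fcrla, at most 1.31 FPKM) were higher in both deficient libraries, against 17.6% of all genes below the filter, and none was lower in both, against 5.12%. Cd79a, Cd79b and Ms4a1 were highest in control replicate 1, while Fcer2a and Ebf1 were highest in deficient replicate 1 and Cr2 and Fcrla in deficient replicate 3, so the list had no shared order. The part of B cells in the class II result was not tested.

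Krt8 and the class II genes were both higher on average in the deficient libraries, and differed in their order among the libraries. Krt8 was at 275 and 987 FPKM in control replicates 1 and 3 and at 875 and 2518 FPKM in deficient replicates 1 and 3. The 2 deficient libraries were in opposite order for the 2 readouts: from deficient replicate 1 to deficient replicate 3 the level of Krt8 was 2.88 times higher, and the summed class II level was 0.703 of its value. The controls were also in opposite order, with control replicate 3 at 3.59 times the Krt8 level of control replicate 1 and at 0.736 of its class II level. Deficient replicate 1 and control replicate 3 had nearly the same Krt8 level (ratio 0.887) and a 2.29-fold difference in the class II level. In the other comparisons of a deficient library with a control both readouts were higher. Deficient replicate 1 was at 3.18 times the Krt8 level and 1.69 times the class II level of control replicate 1, deficient replicate 3 at 2.55 and 1.61 times those of control replicate 3, and deficient replicate 3 at 9.17 and 1.19 times those of control replicate 1. The log2 difference of Krt8 was 1.51 (SE 0.75, adjusted p = 0.755 in limma), and that of the summed class II level was 0.72.

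The ratio of summed class II FPKM to Krt8 was 8.29 and 1.7 in the controls and 4.4 and 1.07 in the deficient libraries, a range of 7.72-fold. On the log2 scale the means were 1.91 ± 1.62 and 1.12 ± 1.44 (SD, n = 2), and the difference of −0.79 gave p = 0.667 in a two-sided exact permutation test. Its sign depended on the libraries: without control replicate 1 the difference was 0.36, without deficient replicate 3 it was 0.23, and between deficient replicate 1 and control replicate 3 alone, a comparison added after the data were seen, it was 1.37. All 21 epithelial genes had a positive log2 difference (50.1% of all genes), and 17 of them were above 1 (6.20% of all genes), with a median of 1.36. Only 3 were higher in both deficient libraries (18.4% of all genes), and 18 overlapped between the groups. Krt8 and 18 others were lowest in control replicate 1 and highest in deficient replicate 3. The exceptions were Reg3b and Reg3g, genes of secreted antimicrobial lectins, which were highest in deficient replicate 1. Reg3b was at 890 and 2000 FPKM in controls and 3695 and 899 FPKM in deficient libraries, and Reg3g at 781 and 1976 against 3974 and 1081. The summed epithelial level was 3004 and 8230 FPKM in controls and 11639 and 12433 FPKM in deficient libraries, and without these genes, a sum added after the values were seen, it was 1332 and 4255 against 3970 and 10453 FPKM. Epcam, an adhesion molecule of epithelial cells, was at 94.5, 229, 187 and 457 FPKM, and Vil1, a brush border protein gene, at 8.72, 29.5, 24.8 and 58.7 FPKM, in the order control 1, control 3, deficient 1, deficient 3. In a fit with the mean epithelial marker level of each library as a covariate, all 8 class II differences stayed positive. Those of H2-Ab1 (1.23, adjusted p = 0.0478 in limma) and Cd74 (1.18, adjusted p = 0.049 in limma) passed the test, against 0.333% of all genes in that fit, in which 4 libraries leave 1 residual degree of freedom. H2-DMb2 went from 1.83 to 1.13 and Ciita from 0.45 to 0.19.

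**Figure D3:**
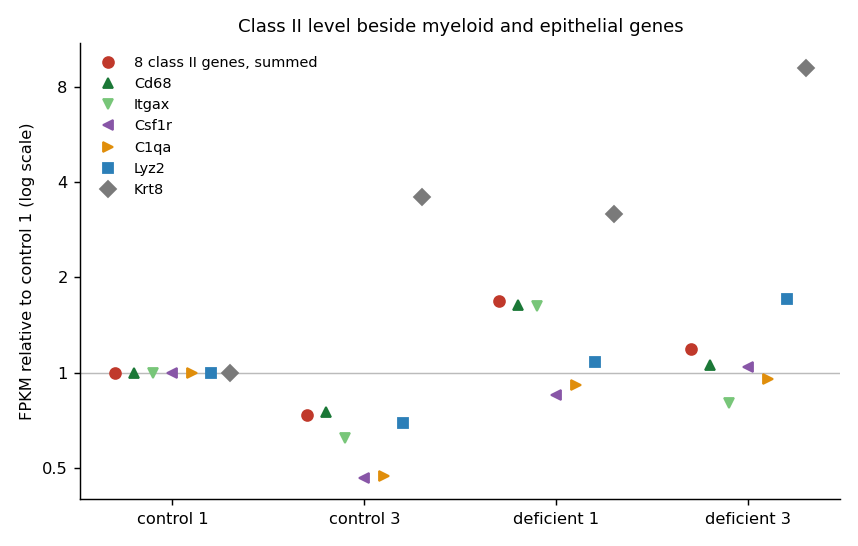
FPKM of the summed class II genes, 5 myeloid genes (Cd68, Itgax, Csf1r, C1qa and Lyz2) and Krt8 in each library relative to control replicate 1 (log axis, grey line at 1), with points spread sideways for legibility. The class II genes (0.736, 1.69 and 1.19 in control 3, deficient 1 and deficient 3) lie beside Cd68 (0.754, 1.64 and 1.06). Cd68 was the myeloid marker with the smallest range of its ratio to the class II level (1.14-fold). Csf1r (0.465, 0.852 and 1.04) and C1qa (0.472, 0.917 and 0.959) lie apart, and Krt8 is at 9.17 in deficient replicate 3.

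The class II level varied less against Lyz2 than against Krt8, but about as much as against a gene of constant level. The ratio to Lyz2 ranged 2.25-fold and that to Krt8 7.72-fold. A gene of constant level would give 2.29-fold, the range of the summed class II level itself. Lyz2 was at 365 and 253 FPKM in the controls and 396 and 626 FPKM in the deficient libraries. Its highest library was deficient replicate 3, whereas that of the class II genes was deficient replicate 1. The ratio of summed class II to Lyz2 was 6.23 and 6.62 in the controls, nearly equal, and 9.71 and 4.32 in the deficient libraries, on either side of the controls. On the log2 scale the means were 2.68 ± 0.06 and 2.70 ± 0.83 (SD, n = 2), the difference was 0.01 (p = 1 in a two-sided exact permutation test), and it was −0.57 without deficient replicate 1.

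Macrophage and dendritic cell genes varied in how closely they lay to the class II level. Cd68, a lysosomal glycoprotein of macrophages, was at 27.9 and 21.1 FPKM in the controls and 45.9 and 29.7 FPKM in the deficient libraries, and the ratio of summed class II to Cd68 varied by only 1.14-fold over the 4 libraries. For Itgax, the CD11c gene, at 8.09 and 5.04 against 13.2 and 6.5 FPKM, the ratio varied by 1.48-fold, and for Aif1, a gene of macrophages, by 1.4-fold. Csf1r, the macrophage growth factor receptor gene, varied by 1.98-fold against the class II level, at 31.3 and 14.6 FPKM in controls and 26.7 and 32.5 FPKM in deficient libraries. The ratio varied most for Ms4a7, a macrophage membrane protein gene, by 2.6-fold, more than for Lyz2 (2.25-fold). Clec9a, a marker of cross-presenting dendritic cells, was at most 0.61 FPKM. Over 15 myeloid and dendritic cell markers with at least 1 FPKM in every library, the median range of the ratio was 1.84-fold (1.14 to 2.6), against 2.75-fold over 10 T cell and IEL markers (2.22 to 4.79) and 5.9-fold over 21 epithelial markers (3.43 to 10.8). A gene of constant level would give 2.29-fold, the range of the summed class II level itself, so these ranges also reflect how much each marker varied. They are a description of 4 libraries, and the markers of a list share libraries and cells.

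Across the whole myeloid and dendritic cell list, 17 of 20 markers were tested, 11 of them were higher in both deficient libraries (18.4% of all genes), 6 overlapped and none was lower in both, with a median log2 difference of 0.49 and a summed level of 857 and 535 FPKM in controls and 976 and 1168 FPKM in deficient libraries. A single marker, Sirpa, was past the fold threshold (1.15), against 6.20% of all genes above 1. None had an adjusted p under 0.05 in limma. The summed level was highest in deficient replicate 3. Without Lyz2, a sum added after the values were seen, it was 492 and 282 FPKM in controls and 580 and 542 FPKM in deficient libraries, highest in deficient replicate 1 as the class II level was. The part of myeloid cells in the class II result was not tested.

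**Figure D4:**
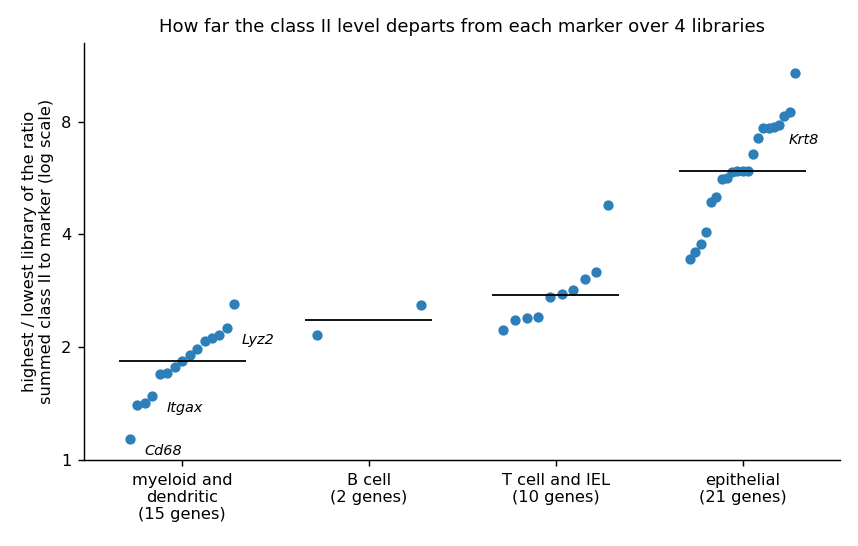
For each cell type marker with at least 1 FPKM in every library, the highest divided by the lowest value, over the 4 libraries, of the ratio of summed class II FPKM to that marker (log axis), with a black line at the median of each list. Myeloid and dendritic cell markers have the lowest median (1.84) and epithelial markers the highest (5.9). A gene of constant level would lie at 2.29.

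The genes most like the class II genes in profile were sought among 10717 other genes with at least 1 FPKM in every library, by the root mean square difference of the centred log2(FPKM + 1) from the mean profile of the 8 genes over 4 libraries. That profile was −0.44 and −0.31 in the controls and 0.65 and 0.09 in deficient replicates 1 and 3. Without H2-DMb2, listed at 0 in control replicate 1, it was −0.22 and −0.38 in the controls and 0.53 and 0.07 in the deficient libraries, with the controls in the reverse order, an alternative added after the data were seen. The nearest gene was Adgre4, an adhesion receptor gene of macrophages, at 2.59, 2.83, 6.33 and 4.27 FPKM with a difference of 0.032, followed by Cbx7, Trim59, Oasl2, Inafm2, Hcar2, Rffl and Tor3a at 0.046 to 0.098. None of these 8 was among the 8 nearest without H2-DMb2, where Ppp4r3a was first (0.020) and Adgre4 ranked 52, so the nearest genes depend on H2-DMb2. The class II genes themselves differed from their mean profile by 0.151 for H2-Aa to 0.929 for H2-DMb2. Of the myeloid markers, Aif1 ranked 47 of 10717 by this measure (12 without H2-DMb2), Adgre1, a surface receptor gene of macrophages, 65 (218), Cd68 109 (30) and Itgax 705 (538). Lyz2 ranked 5222 (5371), near Cd14 at 5280 (3646) and C1qa at 5606 (3849), while Csf1r at 6649 (5232), C1qc at 7419 (6863) and Ms4a7 at 7816 (7069) were farther off. Krt8 ranked 10605 (10620). With 4 libraries, many genes lie close to any given profile.

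Depth was similar in the libraries, and the shallowest of them, deficient replicate 3, had the second highest class II level. Relative to control replicate 1, the depth read from the smallest steps of low FPKM values was 0.979 in control replicate 3, 1.01 in deficient replicate 1 and 0.844 in deficient replicate 3. FPKM summed to 578491 to 646671 per library. The number of genes listed at 0 was 4531 and 2773 in the controls and 3119 and 1625 in the deficient libraries, with control replicate 1, where H2-DMb2 was at 0, having the most.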

How the data were processed

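RNA of sorted TCRβ+CD8αα+ IELs, pooled from 3 mice per library, was sequenced on the HiSeq platform. The authors mapped reads to mm10 with HISAT and Bowtie2 (2.2.5 in the submitters' processing notes, which also name GRCm38.p5) and quantified genes with RSEM (1.2.8), and the deposited FPKM values are relative to transcript length and mapped fragments. Strandedness is not given in the sources used here. Entrez identifiers were matched to RefSeq symbols of GRCm38.p6 (18467 of 19339). Values were used as log2(FPKM + 1), with a filter of at least 1 FPKM in at least 2 libraries (12009 genes). The difference of group means was tested with limma 3.58.1 (trend) in R 4.3.3 with Benjamini-Hochberg adjustment over all genes, which was tested on simulated data first, and called past the fold above 1 or below −1. Summed values were compared by exact permutation tests. Other steps used Python 3.11.15, pandas 2.3.3 and numpy 2.4.6. Total reads are unknown, so no counting intervals were computed. The paper describes each sample as pooled RNA, and the labels do not say whether the libraries of a group come from different mice. They were taken as separate pools, so p-values measure the spread between libraries under that assumption.

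The class II genes, the pathway lists and the marker lists were chosen with earlier results of these data known. Genes named are the class II genes, Krt8, Lyz2, defining markers, listed pathway genes that were past the fold, did not overlap between groups or stood at 0, and the 8 nearest profiles. Aif1, Adgre1, Cd68, C1qa, C1qc, Cd14, Ms4a7, Clec9a, Sirpa, Ms4a1, Pax5, Cd79b, Ebf1, Fcer2a, Cr2, Fcrla, Reg3b, Reg3g, Ppp4r3a, Ifng, Marchf8, Cd40, H2-Oa and H2-Ob were named outside that rule after their values were seen. A listed marker is not reported here. Alternatives were other pseudocounts and filters, median-of-ratios, quantile and Cd3/Ptprc scaling, an epithelial covariate, the replicate number as a block, no trend, summed DM β chains, the sum without Cd74, and each library left out.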

Additional observations from a re-analysis of the deposited data

How the results depend on the processing

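The cell type behind the class II signal cannot be told from bulk RNA, 2 libraries per group limit every test, and H2-DMb2 is uncertain. Over 110 recalculations of single class II genes, none changed sign and 6 newly passed the test. All 6 came from the fits with the replicate number as a block or with the epithelial covariate. In most recalculations the sign could not change. A block, a filter or the trend setting leaves the estimate as it is. Leaving out a library or changing the pseudocount keeps it positive where both deficient libraries are above both controls. With median-of-ratios and Cd3/Ptprc scaling, 8 of 8 class II genes were higher in both deficient libraries, a count added after the data were seen. The share of all genes was not computed under these scalings, so this count has no reference. Under the Cd3/Ptprc scaling all genes were shifted upward, with a median log2 difference of 0.36. The causes were not tested.

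The replicate numbers 1 and 3 are shared by both groups, but the labels do not say that they mark a shared batch. With 2 such pairs, the correlation across genes of same-numbered deviations was 0.56. When the model held the replicate number as a block, genes with an adjusted p under 0.05 in limma went from 0 to 1019 (8.49% of genes), of which 886 were higher and 133 lower. They included H2-Ab1 (0.0126), H2-Eb1 (0.0348), Cd74 (0.0087) and H2-DMb1 (0.0489), while H2-Aa (0.0862), H2-DMb2 (0.0854), H2-DMa (0.403) and Ciita (0.407) did not pass. With an epithelial covariate the count was 40. Both of these fits leave 1 residual degree of freedom.

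Genes past the fold numbered 797 (744 higher, 53 lower), and 1381 and 1451 with pseudocounts of 0.1 and 0.01, 1430 with scaling to the Cd3 genes and Ptprc (1406 higher, 24 lower), where the median of all genes moved to 0.36, and 471 with the epithelial covariate (355 higher, 116 lower). Leaving out a library gave 341 (control replicate 1), 1354 (control replicate 3), 1489 (deficient replicate 1) and 388 (deficient replicate 3). The split under quantile normalization was 558 higher and 97 lower. Class II genes past the fold numbered 1, and 0 with a filter of 5 FPKM (which leaves out H2-DMb2) or with the DM β chains summed. They numbered 5 with the Cd3 scaling, against 1430 of 12002 genes tested, and 4 with the epithelial covariate, against 471 of 12009. Without a library they numbered 1 to 3, with 3 being without deficient replicate 3, against 388 of 11653 genes.

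The summed class II difference of 0.72 stayed at 0.47 or above, its highest value being that between deficient replicate 1 and control replicate 3 alone, where no replicate remained. With all libraries it was 1.12 under the Cd3/Ptprc scaling, where the median of all genes was 0.36. The class II to Krt8 difference of −0.79 ranged from −1.93 to 0.36 without a library, with the sign turned without control replicate 1 (0.36) or deficient replicate 3 (0.23), and was 1.37 between deficient replicate 1 and control replicate 3. The class II to Lyz2 difference of 0.01 was −0.05 without Cd74 in the sum and ranged from −0.57 to 0.60 without a library, −0.03 being without control replicate 1.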
